A study of Homo sapiens with 12 samples.

Results

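The library labelled ΔCRE 0 h replicate 1 is 1 of 12 RNA-sequencing libraries that the study labelled as MDA-MB-231 cells, which are human breast cancer cells of mesenchymal character. It held many epithelial, stromal and myeloid genes that were near 0 in all other libraries, beside genes typical of the line, as given below. The identity of its RNA is therefore uncertain and was not tested, and it is called by its label throughout. It was taken by its label, as 1 library, and set against the other 11 together. Those were 6 libraries of WT cells and 5 of ΔCRE cells, in which the NFAT and NF-κB binding sites of the core-regulatory element (CRE) in the ETS1 promoter had been deleted with CRISPR/Cas9. Both genotypes were harvested before stimulation (0 h) and after 6 and 24 h of PMA/Ionomycin, a phorbol ester given together with an ionophore for calcium. Each condition had 2 biological replicates. The library examined here was labelled as unstimulated ΔCRE cells, and its partner is ΔCRE 0 h replicate 2. How many clones the ΔCRE libraries came from is not given in the sources used here. Levels are FPKM, the fragments of a gene scaled to its transcript length and to the fragments mapped in the library. Levels of different genes in this library also move with transcript length, as given at the end. The number of fragments is unknown, and with 1 library no difference below has a test, an error or a replicate check. Where 3 values are given for the other 11 libraries, they are their lowest, median and highest FPKM.

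The intestinal lining is a sheet of epithelial cells renewed from stem cells in the crypts. CDX2 and HNF4A are transcription factors that set its identity, LGALS4 (galectin 4), CDH17 (LI-cadherin) and KRT20 (keratin 20) are made by its mature cells, and REG1A and CEACAM5 are a secreted and a surface protein of digestive epithelia. In bulk tissue such cells lie beside fibroblasts, vessels and leukocytes, whereas a cultured line holds 1 kind of cell. MDA-MB-231 cells have little E-cadherin and much vimentin, and are known to lack the CDKN2A locus on chromosome 9.

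All 6 genes chosen to mark the library were present in it and near 0 elsewhere. REG1A, a secreted lectin (chr2:79347584-79350545 in hg19), was at 4722 FPKM here and listed at 0 in each of the other 11 libraries. LGALS4 (chr19:39292311-39303740) was at 596 FPKM here and at 0, 0.0502 and 0.156 FPKM in the other 11. CEACAM5, a surface glycoprotein of the carcinoembryonic antigen family (chr19:42212530-42234437), was at 574 FPKM here and listed at 0 in each of the other 11. These levels do not overlap with those of any other library. KRT20 (chr17:39032141-39041495) was at 127 FPKM here and at 0, 0 and 0.0482 FPKM in the other 11. CDH17 was at 126 FPKM here and at 0, 0 and 0.0395 FPKM in the other 11. CDX2 (chr13:28536205-28543505) was at 55.3 FPKM here and listed at 0 in each of the other 11. In ΔCRE 0 h replicate 2, REG1A, CEACAM5 and CDX2 were listed at 0, and CDH17, KRT20 and LGALS4 were at 0.01398, 0.0303 and 0.0895 FPKM. The markers of gut epithelium were thus abundant in this library and at or near 0 in its replicate.

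Of 24331 features in the table, 278 were at 10 FPKM or more in this library and under 0.5 FPKM in each of the other 11, which is 1.14% of all features. These are called held features below. They were picked by their levels, so their number describes the library and supports nothing further. Levels under 0.5 FPKM in the other 11, given for held genes below, follow from this choice. Of them, 81 were listed at 0 in all 11 other libraries, and 55 were at 100 FPKM or more. Their median was 28.2 FPKM and their sum was 32535 FPKM, or 2.29% of the library's summed FPKM, against 7.499 to 14.1 FPKM in the others. Just inside the limit of 10 FPKM were FOXJ1 (10.02 FPKM) and LEAP2 (10.1 FPKM), and just outside it RBP4 (9.84 FPKM) and PPL (9.84 FPKM). Several abundant genes missed only the limit of 0.5 FPKM in the others. CRIP1 was at 1992 FPKM here and reached 0.555 FPKM elsewhere, and APOE, a lipid carrier, was at 601 FPKM here and reached 0.552 FPKM elsewhere.

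Promoters of the genes held by this library are shown because several carry the recognition sequence of a gut transcription factor that is itself among them. Windows of 20 bases on each side of a match were taken from RefSeq promoters (GRCh38.p14 table), placed on hg19 by exact match and written on the strand of the gene, with the match in capitals. The first group holds CAAAGTCCA, a binding sequence of HNF4 factors, on either strand (TGGACTTTG when on the opposite strand).
REG1A: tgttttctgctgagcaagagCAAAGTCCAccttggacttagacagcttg
MUC13: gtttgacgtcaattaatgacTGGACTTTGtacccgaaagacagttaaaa
GPR35: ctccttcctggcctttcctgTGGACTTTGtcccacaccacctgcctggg
MYO1A: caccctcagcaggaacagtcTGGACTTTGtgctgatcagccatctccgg
LEAP2: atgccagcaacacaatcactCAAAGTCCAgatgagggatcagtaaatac
The second group holds TTTATNG, a core sequence of CDX factors, in each case on the opposite strand (CNATAAA as written).
LCN2: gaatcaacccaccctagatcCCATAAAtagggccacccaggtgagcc
FABP1: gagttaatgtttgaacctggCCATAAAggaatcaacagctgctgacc
S100A14: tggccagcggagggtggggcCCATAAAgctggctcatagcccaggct
CDX2: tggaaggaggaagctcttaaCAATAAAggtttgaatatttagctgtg

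The windows lie before a start listed in RefSeq. In hg19 those of the first group are REG1A at chr2:79347373-79347421 on the plus strand, MUC13 at chr3:124653618-124653666 on the minus strand, GPR35 at chr2:241544792-241544840 on the plus strand, MYO1A at chr12:57443915-57443963 on the minus strand and LEAP2 at chr5:132209150-132209198 on the plus strand. Those of the second group are LCN2 at chr9:130911681-130911727 on the plus strand, FABP1 at chr2:88427645-88427691 on the minus strand, S100A14 at chr1:153588889-153588935 on the minus strand and CDX2 at chr13:28543607-28543653 on the minus strand. Against the deposited features, the windows of GPR35 and FABP1 overlap the start and that of MYO1A lies inside, before an alternative start. REG1A encodes a lectin, MUC13 a membrane mucin, GPR35 a receptor, MYO1A the myosin of the brush border and LEAP2 a secreted peptide. In the library MUC13 was at 314 FPKM, GPR35 at 26.4, MYO1A at 17.6 and LEAP2 at 10.1 FPKM. In the 250 bases before each start, on both strands, CAAAGTCCA was found in 0.325% of 35116 promoters, TTTATNG in 8.93% and TATAAA, the TATA box, in 10.7%. A gene can have several promoters in the table, so shares are given by gene from here. CAAAGTCCA was in 6 of the 171 held genes that have a promoter there, or 3.51%, against 0.403% of all 27305 genes and 0.299% of 4009 genes that reached 10 FPKM in all 11 other libraries. TTTATNG was in 17.5%, 10.9% and 7.38% of the same groups, and TATAAA in 21.1%, 13.05% and 6.81%. TATAAA can share bases with TTTATNG, and counted only where it shared none, TTTATNG was in 7.602%, 7.67% and 5.46%. The share of the held genes was then close to that of all genes. The 4 windows printed for TTTATNG share no base with TATAAA. A match is a string of letters, and binding was not measured here.

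**Figure D1:**
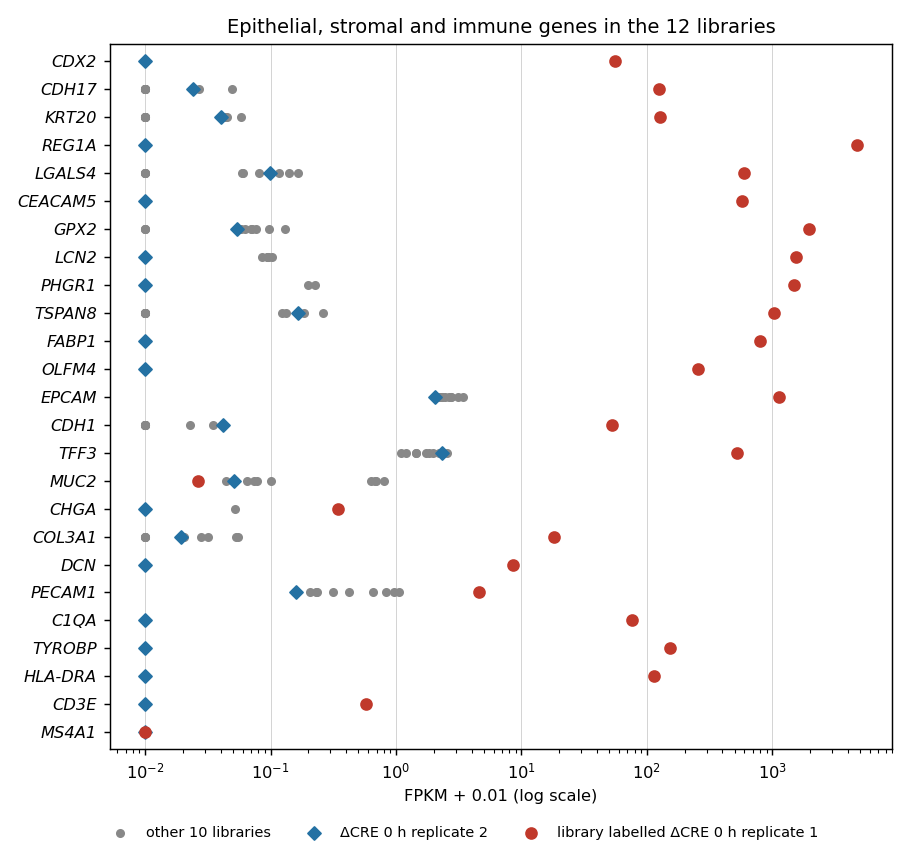
Levels of 25 epithelial, stromal and immune genes, as FPKM + 0.01 on a log axis, in the library labelled ΔCRE 0 h replicate 1 (red), in ΔCRE 0 h replicate 2 (blue) and in the other 10 libraries (grey). The red points of REG1A (4722 FPKM) and GPX2 (1958 FPKM) lie far to the right of all grey and blue points, while MS4A1 is at 0 in the red library and MUC2 is at 0.0163 FPKM.

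The 15 highest held single genes were led by secreted and surface proteins of epithelia. After REG1A came GPX2, a glutathione peroxidase of the gut, at 1958 FPKM. LCN2, an iron-scavenging lipocalin, was at 1532 FPKM, PHGR1 at 1478, PRAP1 at 1115 and TSPAN8, a tetraspanin, at 1030.2 FPKM. None of these exceeded 0.252 FPKM in another library. LOC440335, a locus without a named product, was at 909.97 FPKM, and FABP1, a fatty acid carrier of enterocytes and hepatocytes, at 801 FPKM. CEACAM6 was at 757 FPKM, S100A14, a calcium-binding protein, at 667, RNASE1, a secreted ribonuclease, at 469, PPP1R1B, a phosphatase inhibitor, at 394 and LYZ, lysozyme, at 361 FPKM. REG1A ranked 67 among all features of the library by FPKM. CEACAM5 and CEACAM6, like REG1A and REG1B, are similar in sequence, so the split of fragments within each pair is uncertain.

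The factors that give the gut its identity were held in part. Of 20 listed, 7 were at least 4-fold above the highest other library on the FPKM + 1 scale, where 3.9% of all features were, and 5 were held features. Beside CDX2, CDX1 was at 48.5 FPKM here and listed at 0 in each of the other 11. HNF4A, a nuclear receptor of gut and liver, was at 25.1 FPKM here and at 0, 0 and 0.0368 FPKM in the other 11. FOXA3, a pioneer factor, was at 22.8 FPKM here and at 0, 0 and 0.0304 FPKM in the other 11. These 3 factors were thus near or at 0 in all libraries but this one. KLF5, a factor of dividing crypt cells that MDA-MB-231 cells also made, was at 72.3 FPKM here and at 4.96, 6.51 and 9.995 FPKM in the other 11. FOXA2, another pioneer factor, went the opposite way, at 13.2 FPKM here and at 18.2, 22.6 and 26.1 FPKM in the other 11. Of the 20, 15 were highest in this library, where 31.2% of all features were.

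Genes of the crypt base and of Wnt signalling had a median log2 difference from the other 11 of 1.76, against 0.00 in each case when each other library was set against the rest in the same way, and the median over all tested features was 0. After rescaling to 1 sum, a step described with the housekeeping genes below, it was 0.82. OLFM4, a secreted glycoprotein of crypt stem cells, was at 254 FPKM here and listed at 0 in each of the other 11. ASCL2, a transcription factor of these stem cells, was at 47.7 FPKM here and listed at 0 in each of the other 11. RNF43, a ubiquitin ligase that removes Wnt receptors, was at 50.4 FPKM here and at 0, 0.0126 and 0.0899 FPKM in the other 11. Of the 19 genes, 7 were at least 4-fold above every other library and 3 were held. LGR5, the receptor that marks stem cells, was low at 0.865 FPKM here and at 0, 0 and 0.199 FPKM in the other 11. CD44, a surface receptor that MDA-MB-231 cells make in quantity, was at 76.2 FPKM here and at 75.9, 106 and 190.4 FPKM in the other 11, at the bottom of their range.

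Genes of mature absorptive cells were split. Of 44 measured, 32 were highest in this library, 18 were at least 4-fold above the others and 11 were held, and the list summed to 5766 FPKM in the library, against 24.1 to 31.1 FPKM in the others. The held ones include PHGR1, TSPAN8, FABP1 and CEACAM6, given above. However, 9 were listed at 0 in the library, among them the lactase LCT, the apolipoprotein APOA4, the carbonic anhydrase CA1, the water channel AQP8 and the hormone GUCA2B. GUCA2A, its relative, was at 7.72 FPKM here and listed at 0 in each of the other 11. The proteins of the brush border itself were more uniform, with 16 of 18 highest here and 7 held. USH1C, a scaffold that links microvilli, was at 49.5 FPKM here and listed at 0 in each of the other 11. VIL1, villin, was at 32.3 FPKM here and listed at 0 in each of the other 11. CDHR5, a cadherin of microvilli, was at 23.02 FPKM here and at 0.0201, 0.0422 and 0.105 FPKM in the other 11. None of these parts of the microvillus was made by the cells of the other libraries at a level above 0.105 FPKM. TMPRSS2, a membrane protease, was at 18.6 FPKM and listed at 0 in the others. EZR, ezrin, was already abundant in the line, at 300.5 FPKM here and at 90.7, 125 and 129.96 FPKM in the other 11.

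Among genes of mucus-secreting goblet cells, most were higher in this library, with membrane mucins and TFF3 among them and MUC2 not. MUC2, the main gel-forming mucin of the intestine, was at 0.0163 FPKM here and at 0.0338, 0.06798 and 0.796 FPKM in the other 11. CLCA1, ZG16 and ATOH1, the factor that commits cells to secretory fates, were listed at 0. The genes that did stand above the others encode membrane mucins, trefoil peptides and their chaperones. MUC13 was at 314 FPKM here and at 0, 0 and 0.0204 FPKM in the other 11. MUC1 was at 628 FPKM here and at 0.332, 0.525 and 1.61 FPKM in the other 11. TFF3, a trefoil peptide, was at 520.1 FPKM here and at 1.08, 1.84 and 2.53 FPKM in the other 11. AGR2, a disulfide isomerase of secretory cells, was at 746 FPKM here and at 12.99, 21.2 and 46.6 FPKM in the other 11. Its relative AGR3 was at 45.2 FPKM, the kallikrein KLK1 at 44.04 FPKM and the mucin MUC20 at 31.9 FPKM, and these with MUC13 are the 4 held genes of 27 measured. In all, 19 of the 27 were highest in this library and 12 were at least 4-fold above the others, and the list summed to 2735 FPKM in the library, against 20.3 to 55.5 FPKM in the others.

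Antimicrobial and REG genes had a median log2 difference of 3.01, against 0.00 in each case for the other libraries. Of 26, 9 were held and 14 were at least 4-fold above the others. REG1A, GPX2, LCN2 and LYZ were the highest of those held. S100P, a calcium-binding protein that was also made by the line, was at 635 FPKM here and at 6.44, 11.7 and 20.1 FPKM in the other 11. PIGR, the receptor that carries IgA across epithelia, was at 117 FPKM here and at 0, 0.0395 and 0.0944 FPKM in the other 11. The Paneth cell defensins DEFA5 and DEFA6 were listed at 0, so LYZ, which myeloid cells make as well, was not accompanied by them.

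Genes of rarer gut cells and neighbouring organs were mostly under 10 FPKM. Of 23 enteroendocrine genes, 13 were listed at 0, and CHGA, chromogranin A, was at 0.331 FPKM here and at 0, 0 and 0.04199 FPKM in the other 11. PCSK1N, an inhibitor of prohormone convertase, was the exception at 95.9 FPKM here and listed at 0 in each of the other 11. Of 14 tuft cell genes, 8 were highest in this library, but none was held. ALOX5, a lipoxygenase that leukocytes share, had the highest level of that list, at 7.903 FPKM here and listed at 0 in each of the other 11. Stomach genes stayed low, with TFF1 at 8.65 FPKM here and at 0.502, 1.104 and 1.84 FPKM in the other 11, and 11 of 18 were listed at 0. Among pancreas and liver genes, SERPINA1, a protease inhibitor, was at 104 FPKM here and at 0.163, 1.19 and 3.54 FPKM in the other 11. ALB, albumin, was at 2.79 FPKM here and at 0, 0 and 0.0522 FPKM in the other 11. APOA2, an apolipoprotein, was at 9.66 FPKM here and at 0, 0 and 0.168 FPKM in the other 11. The pancreatic enzymes PRSS1, CPA1, PNLIP, CTRC and CELA3A were listed at 0 in the library. Of 27 pancreas and liver genes, 15 were highest here and 5 at least 4-fold above the others, where 31.2% and 3.9% of all features were. None was held, and 11 were listed at 0. Of 35 genes of breast, lung, prostate, bladder, kidney and skin, only TMPRSS2 was held. The breast genes SCGB2A2, PIP and ESR1 were listed at 0 here. None of these breast genes exceeded 0.009 in the other 11 after rescaling to 1 sum, so they do not separate this library from the others.

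Genes shared by most epithelia were among the most different groups. Their median log2 difference was 3.09, against −0.03 to 0.05 for the other libraries, with 45 of 51 highest here, 30 at least 4-fold above the others and 12 held. EPCAM, an adhesion molecule of epithelia, was at 1139 FPKM here and at 2.02, 2.45 and 3.38 FPKM in the other 11. CDH1, E-cadherin, was at 52.3 FPKM here and at 0, 0 and 0.0318 FPKM in the other 11. KRT8, a keratin of simple epithelia, was at 3568 FPKM here and at 269, 437 and 513 FPKM in the other 11. The other libraries did not come near these levels for any of the 3. KRT18, the partner of KRT8, was at 2678 FPKM here and at 347, 506 and 550.4 FPKM in the other 11, and KRT19 was at 1848 FPKM here and at 32.5, 59.3 and 106 FPKM in the other 11. The held genes with the highest levels were S100A14, PRSS8, a membrane protease, at 351 FPKM, RAB25, a GTPase of epithelial vesicles, at 243 FPKM and ELF3, an epithelial member of the ETS family, at 142 FPKM. The list summed to 14446 FPKM in the library, against 1187 to 1959 FPKM in the others.

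In bulk RNA, fewer cells of a type and less RNA per cell cannot be told apart. Stromal genes were found as well. Of 33 fibroblast genes, 25 were highest in this library, 10 were at least 4-fold above the others and 5 were held, while the summed level was 323 FPKM in the library, against 109 to 319 FPKM in the others. COL3A1, a fibrillar collagen, was at 18.04 FPKM here and at 0, 0.0101 and 0.0449 FPKM in the other 11. CXCL14, a chemokine, was at 25.2 FPKM here and at 0, 0 and 0.0534 FPKM in the other 11. POSTN, periostin, was at 18.9 FPKM here and at 0, 0 and 0.0194 FPKM in the other 11. These matrix and chemokine genes were nearly silent in the other libraries. BGN, biglycan, was at 18.3 FPKM and COL1A2 at 16.1 FPKM, neither above 0.148 FPKM elsewhere. DCN, decorin, was at 8.602 FPKM here and listed at 0 in each of the other 11. In contrast COL6A1 and COL6A2, which the line itself makes, were at 20.1 and 17.8 FPKM, next to the lowest of the other libraries.

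No smooth muscle or endothelial gene was held. ACTA2, smooth muscle actin, was at 50.1 FPKM here and at 0.109, 0.541 and 1.24 FPKM in the other 11. TAGLN, transgelin, was at 81.6 FPKM here and at 1.29, 4.93 and 7.799 FPKM in the other 11. DES, desmin, was at 8.79 FPKM here and at 0.265, 0.469 and 1.896 FPKM in the other 11. All 3 were above every other library. PECAM1, an adhesion molecule of endothelium and leukocytes, was at 4.57 FPKM here and at 0.147, 0.303 and 1.04 FPKM in the other 11. PLVAP, of fenestrated vessels, was at 4.39 FPKM here and at 0, 0 and 0.0456 FPKM in the other 11. Of 19 smooth muscle genes 13 were highest and 4 lowest, and 2 were at least 4-fold above the others. Of 20 endothelial genes 13 were highest and 1 lowest, and 1 was at least 4-fold above. Of all features, 31.2% were highest, 18.9% lowest and 3.9% at least 4-fold above. After rescaling to 1 sum, 9 smooth muscle genes were highest and 7 lowest, with SYNM, MYLK, MCAM and CALD1 among the lowest. For endothelial genes the counts were then 7 and 3, with ESAM and ROBO4 among the lowest. On this scale 11.04% of features with a mean of at least 1 FPKM were highest and 72.67% lowest. Both lists also hold genes under that mean, so these shares are only a rough guide for them.

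Among leukocyte genes, those of the myeloid lineage and of antigen presentation stood out. Of 36 myeloid genes, 31 were highest here, 18 were at least 4-fold above the others and 9 were held, with a median log2 difference of 2.05 against 0.00 in each case. S100A9, a calprotectin subunit of neutrophils and monocytes, was at 193 FPKM here and at 0, 0 and 0.277 FPKM in the other 11. TYROBP, a signalling adaptor, was at 154 FPKM here and listed at 0 in each of the other 11. AIF1, a macrophage protein, was at 83.8 FPKM here and at 0, 0 and 0.169 FPKM in the other 11. The other libraries had next to none of these transcripts. C1QA, a complement subunit of tissue macrophages, was at 75.7 FPKM here and listed at 0 in each of the other 11, and C1QB was at 56.9 FPKM with 0 in the others. CD68, which the line also makes, was at 88.96 FPKM here and at 20.8, 33.8 and 91.7 FPKM in the other 11 and so within their range.

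All 9 MHC class II genes, which present antigen, were highest in this library, and 5 were held. HLA-DRA was at 113 FPKM here and listed at 0 in each of the other 11. CD74, the invariant chain, was at 143 FPKM here and at 0, 0.0437 and 0.0977 FPKM in the other 11. HLA-DPA1 was at 23.9 FPKM and HLA-DMB at 11.5 FPKM, with neither above 0.0735 FPKM elsewhere. CIITA, the coactivator that switches these genes on, was itself low at 0.2304 FPKM here and at 0, 0 and 0.0133 FPKM in the other 11.

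Genes found in all leukocytes gave a mixed picture. CD52, a surface glycopeptide, was at 87.9 FPKM here and at 0, 0 and 0.3598 FPKM in the other 11. CD53, a tetraspanin, was at 13.5 FPKM here and at 0, 0 and 0.0397 FPKM in the other 11. PTPRC (CD45), the defining leukocyte phosphatase, was at 0.476 FPKM here and at 0, 0 and 0.0281 FPKM in the other 11. CYBA, an oxidase subunit that MDA-MB-231 cells also make, was at 1085 FPKM here and at 108, 122 and 152 FPKM in the other 11. CD45 was therefore above the others but low in absolute terms. ARHGDIB, RAC2 and LAPTM5, usually taken as leukocyte genes, were between 92.1 and 314 FPKM in the other 11, and so do not separate leukocytes from the line in this table.

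T and NK cell genes were mostly higher here but at low levels. Of 31 T and NK cell genes, 24 were highest in this library and 21 were under 1 FPKM in it, and of 25 B and plasma cell genes, 12 and 18. No T, NK, B or plasma cell gene was held. CD3E, of the T cell receptor complex, was at 0.565 FPKM here and listed at 0 in each of the other 11. GNLY, granulysin of killer cells, was at 4.04 FPKM here and at 0, 0 and 0.577 FPKM in the other 11. IL32, a cytokine that stimulated MDA-MB-231 cells also made, was at 343 FPKM here and at 0.171, 15.7 and 21.5 FPKM in the other 11. CD3E and GNLY lay above every other library at low levels, and transcripts of B cells were hardly found. MS4A1 (CD20) and PAX5 were listed at 0, and MZB1, a chaperone of plasma cells, was at 1.16 FPKM here and at 0, 0 and 0.185 FPKM in the other 11. Of 31 T and NK cell genes 2 were at least 4-fold above the others, and of 25 B and plasma cell genes 1. Neither count is far from the 3.9% of all features that were.

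From blood, fat and nerve, the held genes were HBB, β-globin, at 24.8 FPKM here and listed at 0 in each of the other 11, and HBA2, α-globin, at 11.97 FPKM here and listed at 0 in each of the other 11. The nearly identical HBA1 was at 3.08 FPKM. SLC4A1, a red cell membrane protein, was listed at 0 in the library, as were ADIPOQ of fat cells and the glial gene SOX10. Of the 23 genes, 16 were under 1 FPKM.

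The other gut lists had medians of 2.52 (brush border), 1.33 (goblet cells), 1.31 (gut identity) and 1.24 (absorptive cells), and HOX and 9p21 genes of 0.52 and 0.10. After rescaling to 1 sum, the medians of these gut lists were 1.57, 0.71, 0.42 and 0.63, so the last 3 went under 2-fold, as did the crypt list. Those of the MHC class II, general epithelial, antimicrobial and myeloid genes were 3.33, 2.07, 2.002 and 1.22. On the FPKM scale the median log2 difference was 1.04 for fibroblast genes (0.40 after rescaling), 0.63 for smooth muscle genes and 0.29 for endothelial genes. It was 1.40 for pan-leukocyte genes (0.66 after rescaling), 0.38 for T and NK cell genes and 0.06 for B and plasma cell genes. For enteroendocrine genes, stomach genes and genes of other epithelia it was 0.00 each. Tuft cell genes had a median of 0.25, pancreas and liver genes of 0.14, and blood, fat and nerve genes of 0.08. Lists in which most genes are at or near 0 in all libraries have a median near 0 whatever their highest members do.

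Position along the body axis is recorded by HOX genes. Of 43 HOX and related genes, 28 were highest and 5 lowest in this library, where 31.2% and 18.9% of all features were. In the list, 11 were at least 4-fold above the others, against 3.9% of all features, and 4 were held. HOXB8 was at 21.6 FPKM here and at 0, 0.141 and 0.238 FPKM in the other 11. HOXB5 was at 15.8 FPKM here and at 0, 0 and 0.0728 FPKM in the other 11. HOXB6 was at 15.2 FPKM here and listed at 0 in each of the other 11. None of these genes exceeded 0.238 FPKM in another library. HOXB7 and HOXB9, at 67.02 and 43.8 FPKM, reached 0.529 and 3.88 FPKM in the others. Each of the HOXB genes named lay above all other libraries.

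CDKN2A, CDKN2B and MTAP are neighbours on 9p21, in a region that MDA-MB-231 cells are known to have lost. CDKN2A, an inhibitor of cell cycle kinases, was at 0.0704 FPKM here and listed at 0 in each of the other 11. CDKN2B, its neighbour, was at 0.0373 FPKM here and listed at 0 in each of the other 11. MTAP, a salvage enzyme that most tissues express, was at 0.0435 FPKM here and at 0, 0.0114 and 0.04402 FPKM in the other 11. All 3 were near 0 in all 12 libraries. PTPLAD2, a fatty acid dehydratase in the same band, was at 1.39 FPKM here and listed at 0 in each of the other 11. FOCAD, further along, was at 2.39 FPKM here and at 0.208, 0.374 and 0.598 FPKM in the other 11, and MLLT3 was at 6.53 FPKM here and at 1.11, 1.64 and 2.96 FPKM in the other 11.

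Genes of mesenchymal MDA-MB-231 cells were not missing as a set. Of 70 listed, 16 were highest in this library, 28 were within the range of the others and 26 were lowest. Of features with a mean of at least 1 FPKM, where most of this list lies, 37.5% were highest and 34.7% lowest. In the list, 4 were at least 4-fold below, against 0.411% of those features. The median log2 difference was −0.51, against −0.13 to 0.12 for the other libraries. With libraries rescaled to 1 sum (TPM), 8 were highest and 52 lowest, and with quantile normalization 11 and 37, so this split depends on the scale. Among features with a mean of at least 1 FPKM, 11.04% were highest and 72.67% lowest after rescaling. With quantile normalization these shares were 26.7% and 46.4%. The counts of the list after rescaling were thus close to the shares of such features.

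Several genes typical of the line were at high levels. VIM, vimentin, was at 1199.5 FPKM here and at 1543, 1728 and 2539 FPKM in the other 11. LGALS1, galectin 1, was at 3669 FPKM here and at 1708, 2244 and 3087 FPKM in the other 11. KRT81, a hair keratin that this line makes, was at 468 FPKM here and at 70.02, 264 and 368 FPKM in the other 11. Vimentin was thus below every other library and the others above every one. After rescaling to 1 sum VIM was at 509 against a lowest value of 1647 elsewhere, KRT81 lay inside the range of the others and LGALS1 lay below it. IL11, a cytokine, was at 117 FPKM here and at 84.1, 164 and 502 FPKM in the other 11. COL13A1, a membrane collagen, was at 108 FPKM here and at 52.9, 87.9 and 171 FPKM in the other 11. AXL, a receptor kinase, was at 51.1 FPKM here and at 46.6, 112 and 125 FPKM in the other 11. These last 3 were inside the range of the others on the FPKM scale, and below it after rescaling to 1 sum.

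Other genes of this list were low. ZEB1, a repressor of epithelial genes, was at 0.932 FPKM here and at 5.08, 6.39 and 9.21 FPKM in the other 11. CDH11, a mesenchymal cadherin, was at 0.376 FPKM here and at 0.653, 7.62 and 22.2 FPKM in the other 11. EGFR, the receptor of epidermal growth factor, was at 1.98 FPKM here and at 14.9, 20.01 and 34.7 FPKM in the other 11. NT5E (CD73) was at 43.02 FPKM and MSN, moesin, at 56.2 FPKM, against lowest values of 121 and 166 FPKM elsewhere. Others were far above. S100A4, a calcium-binding protein of motile cells and leukocytes, was at 4717 FPKM here and at 11.03, 23.4 and 41.7 FPKM in the other 11. TGFBI, an adhesion protein, was at 622 FPKM here and at 52.1, 134 and 199 FPKM in the other 11. Both remained above every other library after rescaling to 1 sum.

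**Figure D2:**
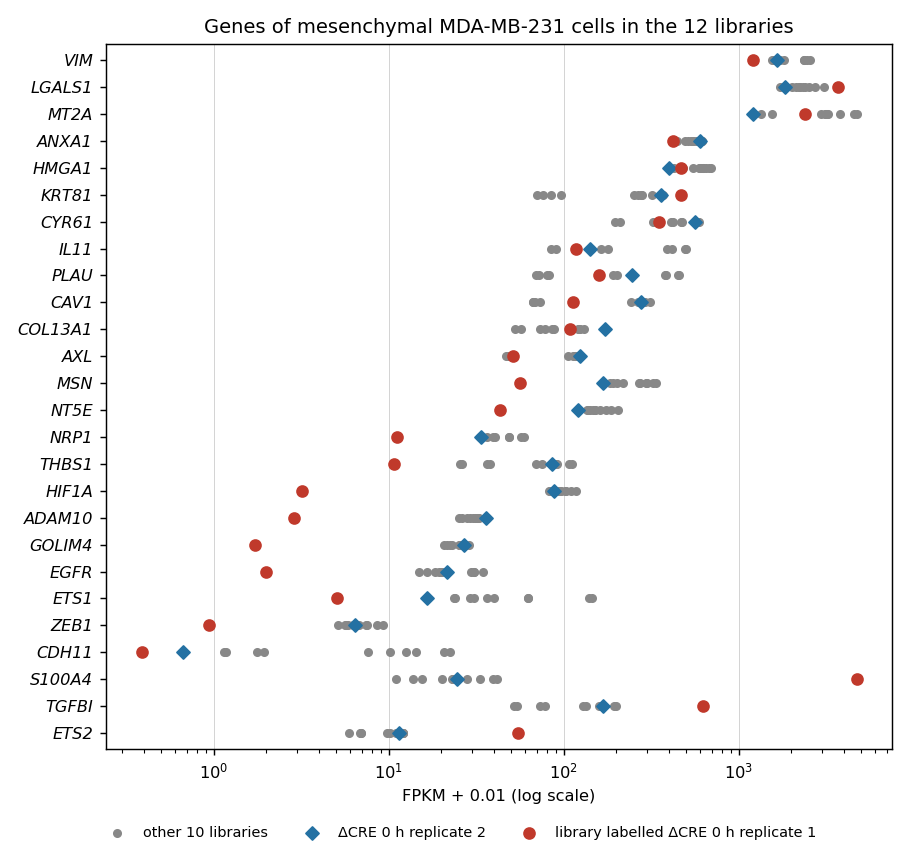
Levels of 26 genes of mesenchymal MDA-MB-231 cells, as FPKM + 0.01 on a log axis, in the library labelled ΔCRE 0 h replicate 1 (red), ΔCRE 0 h replicate 2 (blue) and the other 10 libraries (grey). The red point lies inside the range for COL13A1 (108 FPKM) and IL11 (117 FPKM), far below it for HIF1A (3.197 FPKM) and far above it for S100A4 (4717 FPKM).

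ETS1, the gene whose regulatory element the study deleted (chr11:128328656-128457453 in hg19), was at 5.08 FPKM here and at 16.5, 36.2 and 145 FPKM in the other 11. It was therefore below every other library, including ΔCRE 0 h replicate 2 at 16.5 FPKM, the lowest of the rest. ETS2, a relative, was at 55.01 FPKM here and at 5.93, 10.1 and 12.1 FPKM in the other 11. ENG, endoglin, was at 15.1 FPKM here and at 8.76, 19.5 and 25.7 FPKM in the other 11. MMP14, a membrane metalloproteinase, was at 32.7 FPKM here and at 21.9, 62.6 and 126 FPKM in the other 11. ENG and MMP14 were inside the range of the others, and below it after rescaling to 1 sum. The low ETS1 stands beside the epithelial, stromal and myeloid genes of the same library, and neither their part in it nor that of the deletion was tested.

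Of 5171 features that reached 10 FPKM in all 11 other libraries, 45 (0.87%) were under 25% of the lowest of them in this library. These were picked by their levels too. EDIL3, a matrix protein, was at 0.344 FPKM here and at 16.7, 29.97 and 41.6 FPKM in the other 11. UGCG, which makes glucosylceramide, was at 0.472 FPKM here and at 15.3, 18.8 and 36.3 FPKM in the other 11. HIF1A, the oxygen-sensing transcription factor, was at 3.197 FPKM here and at 82.4, 94.6 and 117 FPKM in the other 11. HIF1A is made by nearly all cells, and its level was 3.88% of the lowest other library. ADAM10, a membrane protease, was at 2.88 FPKM here and at 25.1, 31.03 and 36.3 FPKM in the other 11, and ADAM17, its relative, at 1.32 FPKM here and at 10.3, 16.8 and 19.5 FPKM in the other 11. MAN2A1, a Golgi mannosidase, was at 1.04 FPKM here and at 13.7, 16.8 and 21.1 FPKM in the other 11. All of these lay below the other 11, as the limit by which they were picked requires. GOLIM4, a Golgi membrane protein, was at 1.705 FPKM here and at 20.6, 25.4 and 28.8 FPKM in the other 11.

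Other genes among the lowest ratios were the following. ELK3, an ETS family factor, was at 1.601 FPKM here and at 18.3, 26.9 and 40.6 FPKM in the other 11. TRIO, a guanine nucleotide exchange factor, was at 1.75 FPKM here and at 15.3, 16.5 and 35.96 FPKM in the other 11. MAPK8 (JNK1), a stress kinase, was at 1.94 FPKM here and at 14.96, 21.3 and 31.5 FPKM in the other 11. Their place below all 11 again follows from how they were picked. PPP4R2, a phosphatase subunit, was at 4.27 FPKM here and at 38.1, 50.5 and 63.8 FPKM in the other 11. PRKAR2A, a subunit of protein kinase A, was at 1.25 FPKM here and at 10.6, 15.1 and 19.1 FPKM in the other 11. BOD1L1, a protein that protects replication forks, was at 1.07 FPKM here and at 10.5, 11.5 and 13.2 FPKM in the other 11. NBPF9 and WASH5P, also among the 15 lowest ratios, have close copies elsewhere in the genome and their values are uncertain. The last feature inside the limit was CLINT1, at 24.9% of the lowest other library, and the first outside was HSPA13, at 25.9%. The number inside depends strongly on scale, since 571 features met the same limit after rescaling to 1 sum.

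Proliferation genes were near the level of the other libraries on the FPKM scale. Of 27, 3 were highest and 11 lowest, with a median log2 difference of −0.24. PCNA, the replication clamp, was at 247 FPKM here and at 90.7, 138 and 176 FPKM in the other 11. UBE2C, a mitotic ubiquitin-conjugating enzyme, was at 455 FPKM here and at 238, 438 and 599 FPKM in the other 11. MKI67, the source of the Ki-67 antigen, was at 20.8 FPKM here and at 36.5, 62.8 and 72.96 FPKM in the other 11. After rescaling to 1 sum none was highest and 25 were lowest. Early response genes were mixed, with 11 of 25 highest, 3 lowest and a median of 0.06. Of features with a mean of at least 1 FPKM, 37.5% were highest and 34.7% lowest. On the rescaled values 4 of the 25 were highest and 10 lowest, with HSPH1, HSP90AA1 and DNAJB1 among the lowest. Among features with a mean of at least 1 FPKM, 11.04% were highest and 72.67% lowest on those values. Early response genes were thus lowest less often than such features, and proliferation genes more often. FOS, which is induced within minutes of stimulation or handling, was at 50.5 FPKM here and at 0.751, 1.72 and 3.01 FPKM in the other 11. JUND was at 139 FPKM here and at 15.5, 18.2 and 27.3 FPKM in the other 11, and HSPA1A, an inducible chaperone, was at 139 FPKM here and at 0.796, 1.704 and 2.37 FPKM in the other 11. HSPA1A and HSPA1B differ little in sequence, so the split between them is uncertain.

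Housekeeping genes changed direction with scale. Their median log2 difference was 0.29 on the FPKM scale, −0.94 after rescaling to 1 sum, −0.66 with quantile normalization and −0.57 when rescaled without ribosomal protein genes. GAPDH, for example, was at 8846 FPKM here and at 4958, 5587 and 6092 FPKM in the other 11, and after rescaling it was below all of them. B2M, the light chain of MHC class I, was at 3692 FPKM here and at 402, 507 and 570.1 FPKM in the other 11. The summed FPKM was 1423335 in this library and 566255 to 651080 in the others, and 81 of 83 ribosomal protein genes were highest in it. The median log2 difference over all tested features was 0 on the FPKM scale, −0.96 after rescaling to 1 sum, −0.26 with quantile normalization and −0.69 without ribosomal protein genes. Levels around the range of the others must be read against these shifts. After rescaling to 1 sum, 155 features met the limits for held features.

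Over the whole table, 618 of 11676 features with a mean of at least 1 FPKM were at least 4-fold above the highest of the others (5.29%), and 48 were at least 4-fold below the lowest (0.411%). After rescaling to 1 sum there were 356 above and 450 below, so the balance of higher to lower features turned with the scale. Pearson's r of log2(FPKM + 1) with the other libraries was between 0.764, with ΔCRE 6 h replicate 2, and 0.796, with WT 24 h replicate 1. Among the other 11 it was between 0.939 and 0.986. These correlations are across genes, which are not independent replicates. The 3 highest values for this library were with 24 h libraries, WT and ΔCRE. The next was with WT 0 h replicate 1 (0.782), above ΔCRE 24 h replicate 2 (0.780) and ΔCRE 0 h replicate 2 (0.774). The values thus lay close together and did not single out a condition. The most abundant genes were largely shared. Of the 100 highest features by the others' median, 84 were also among the 100 highest here, against 94 to 98 for the other libraries, and of the 500 highest, 375 against 457 to 470.

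Transcript length moved with the differences. Features with a longer transcript tended to be lower in this library, with a Spearman's rho of −0.48 across 10444 features, against −0.20 to 0.20 when each other library was set against the rest. In the shortest of 10 length classes (64 to 1523 bases) the median log2 difference was 1.12 and 178 of 1046 features were at least 4-fold above the others. In the longest (7951 to 34626 bases) the median was −0.70 and 7 of 1044 were. The held features had a median length of 1935 bases and the 45 low features of 5838 bases, against 3318.5 bases for the 5171 features these were drawn from. HIF1A, at 3956 bases, lies in the sixth of the 10 classes, where the median difference was −0.17. The differences given above move with length in this way, and its part in them was not tested.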

How the data were processed

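Stranded mRNA libraries of WT and ΔCRE MDA-MB-231 cells were sequenced on a NextSeq 500. The authors mapped the fragments to hg19 with TopHat, estimated expression with Cufflinks and deposited 1 table of FPKM values with 12 columns. The gene annotation and any scaling between libraries are not given in the sources used here. Columns were matched to samples by name. In 2 column names a digit stands in place of a letter, and only 1 label remained for either. Where several features carry 1 symbol, the feature with the highest mean was used. Calculations used Python 3.11.15, pandas 2.3.3, numpy 2.4.6 and scipy 1.17.1, were checked on simulated data, and rest on FPKM or log2(FPKM + 1), with a mean of at least 1 FPKM where tested features are named. Folds of low genes are understated on this scale. Transcript lengths came from the GENCODE annotation of GRCh37 and cover 89.4% of tested features. The genes, limits and 27 lists were chosen with earlier results of these data known. Genes named are the 6 markers, in each list the held genes with the 4 highest values, the 15 highest held genes, the 15 lowest ratios among low features, ETS1, ENG and MMP14, and defining markers at or near 0. Other list members were named after their values were seen. Genes that could bear on 1 person were left out, and a few others are not reported here. FPKM values keep no fragment counts, so depth is unknown and no interval was computed. The alternatives were rescaling to the same sum (TPM, put on the mean sum of the other 11), quantile normalization, rescaling without ribosomal protein genes, a pseudocount of 0.1, no filter, stricter limits, no small RNA or features of several genes, and leaving out each other library.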

Additional observations from a re-analysis of the deposited data

How the results depend on the processing

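Rescaling to the same sum (TPM) gave 155 held and 571 low features (278 and 45 before), 356 at least 4-fold above (618) and 450 below (48), and 5 lists with a median of 2-fold or more (11 of 27). Rescaling without ribosomal protein genes gave 179, 272, 398, 236 and 6. Quantile normalization gave 99 features 4-fold below and an r of 0.793 as the highest with another library. A pseudocount of 0.1 gave 184 features 4-fold below and a highest r of 0.722, and no filter gave 948 features 4-fold above and a highest r of 0.904, where the main value was 0.796. With stricter limits, 89 features were at 50 FPKM or more and 177 were under 0.1 FPKM in the others, while 8 were under 10% of the lowest other library and 5 were low among those at 50 FPKM or more. The median of the housekeeping genes turned from 0.29 to −0.94 (TPM), −0.66 (quantile) and −0.57 (without ribosomal protein genes). The shifts of the housekeeping genes came with a change of scale, and the cause of the library's larger sum was not tested. Leaving out each other library in turn gave 278 to 282 held, 45 to 48 low, 619 to 623 above and 48 to 55 below, and 11 lists each time. Of the list medians under all alternatives, 240 moved by no more than the spread between libraries, 189 by more and 3 turned. Depth is unknown, so genes at 0 may lie below detection. No paired analysis was possible because no result comes from a test.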

Other observations

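The groups in this section were assembled after the values had been seen, so their counts describe what was picked. Kallikreins are secreted serine proteases encoded side by side on chromosome 19, and 6 of 15 met the limits of the held features. KLK6 was at 75.6 FPKM here and listed at 0 in each of the other 11. KLK8 was at 42.6 FPKM here and listed at 0 in each of the other 11. KLK10 was at 26.9 FPKM here and at 0, 0 and 0.0171 FPKM in the other 11. The prostate members KLK3 and KLK4 were listed at 0 in the library. Keratins and envelope proteins of squamous or stressed epithelium were present too, with 11 of 21 held. KRT17, a keratin of injured epithelium, was at 254 FPKM here and at 0, 0 and 0.0775 FPKM in the other 11. TRIM29 was at 29.7 FPKM here and at 0, 0.0551 and 0.08402 FPKM in the other 11. KRT16 was at 21.4 FPKM here and at 0, 0.0311 and 0.0755 FPKM in the other 11. Of 17 S100 genes, which encode small calcium-binding proteins, all were highest in this library on the FPKM scale. S100A6 was at 8971 FPKM here and at 1186, 1363 and 1634 FPKM in the other 11. S100A11 was at 2706 FPKM here and at 482, 731 and 856 FPKM in the other 11, and S100A10 at 2444 FPKM here and at 292, 519 and 546 FPKM in the other 11.

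Enzymes that handle drugs and foreign compounds were picked because several were high, and 22 of 24 were highest here and 8 held. ALDH1A1, an aldehyde dehydrogenase, was at 62.01 FPKM here and at 0, 0 and 0.0545 FPKM in the other 11. CES1, a carboxylesterase, was at 70.6 FPKM here and at 0, 0 and 0.0269 FPKM in the other 11. AKR1C3, an aldo-keto reductase, was at 398 FPKM here and at 5.41, 10.4 and 20.02 FPKM in the other 11. Lipocalin, tetraspanin and other surface genes had 12 of 13 held. FXYD3, a regulator of the sodium pump, was at 348 FPKM here and at 0, 0 and 0.0487 FPKM in the other 11. TMEM176B was at 186 FPKM here and listed at 0 in each of the other 11. Cancer-testis genes, which are silent in most adult tissues, differed in both directions. MAGEA3, which the line makes, was at 46.7 FPKM here and at 55.4, 68.1 and 81.4 FPKM in the other 11. MAGEC1 was at 6.44 FPKM here and at 16.2, 18.8 and 26.4 FPKM in the other 11. CTAG2 was at 32.7 FPKM here and listed at 0 in each of the other 11, and PAGE1 was at 43.8 FPKM here and at 0, 0 and 0.289 FPKM in the other 11. Cancer-testis genes have close copies, so the level of 1 member is uncertain. Of 22 of them, 6 were highest and 6 lowest here, where 31.2% and 18.9% of all features were. This split is thus not far from that of all features. Among 14 imprinted genes, 9 were highest and 2 were held. MEST, one of them, was at 53.98 FPKM here and at 6.69, 9.82 and 15.3 FPKM in the other 11.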
